A study of Mus musculus with 12 samples.

Results

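The Hsp40 or J-protein co-chaperones, whose mouse genes carry Dnaj symbols, were examined in gastrocnemius, a large calf muscle of mainly fast fibres. Members were all genes whose platform symbol starts with Dnaja, Dnajb or Dnajc, except Dnajb1, Dnaja1 and Dnaja4. They came to 38 of the 19057 genes named on the array, with 82 of its 45281 probes. RNA was taken from 12 male C57BL/6J mice aged 10 to 12 weeks and weighing 22 to 26 g, and each mouse had its own Illumina MouseWG-6 v2 array. All 12 mice had a temperature transponder implanted and went through the same heat test, in which the chamber was set to 39.5°C and exposure lasted no more than 3 h. The 6 mice labelled heat tolerant (TOL) and the 6 labelled heat intolerant (INT) had been sorted by how their core temperature rose in that test, and muscle was collected the day after. No unheated mouse was analysed here, so each value below compares heated TOL with heated INT mice.

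J-proteins carry a J-domain, which stimulates the ATPase of Hsp70 and so decides when and where an Hsp70 grips its client. Class A members also hold a glycine and phenylalanine rich stretch and a zinc finger, class B members the stretch without the zinc finger, and class C members only the J-domain, usually beside domains that tie them to one organelle or task. In muscle the family is best known for Dnajb6, which keeps client proteins from aggregating and is mutated in a human limb-girdle muscular dystrophy. Dnajb1, the classical heat-inducible Hsp40, is not a member and served here only for contrast.

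The arrays had a median signal of 71.5 to 74 and between 15179 and 17017 detected probes per mouse, a detected probe being one with a detection p under 0.05. The array of TOL mouse 11 stood apart from the others, with a mean correlation to them of 0.973 against 0.981 to 0.987. The fast muscle markers that define this tissue, 6 of 6 genes, were detected on every array, with a median log2 difference, TOL minus INT, of -0.01. The slow muscle markers were lower in the mean of TOL mice for 7 of 7 genes, with a median log2 difference of -0.76, and their summed linear level ran from 9781 to 30390 in INT and from 3427 to 16020 in TOL mice. No slow marker was at 0 throughout, Myh7 being detected on 7 of the 12 arrays. The smooth muscle markers were lower for 4 of 4 tested genes, with a summed level of 1288 to 2082 in INT and 715.6 to 1598 in TOL mice. In whole muscle, fewer cells of a type and less RNA per cell cannot be told apart, and the part of these markers in the values that follow was not tested.

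Of the 38 genes, 28 had at least 1 probe detected on 6 or more of the 12 arrays, and these probes, 43 of 82, were tested. This was 52.4% of the family's probes, beside 34.4% of all probes. Class A had 2 genes with 3 of 6 probes tested, class B had 7 of 11 genes with 12 of 21 probes, and class C had 19 of 25 genes with 28 of 55 probes. The genes with no tested probe were Dnajb3, Dnajb7, Dnajb8, Dnajb14, Dnajc1, Dnajc5b, Dnajc5g, Dnajc6, Dnajc9 and Dnajc14. Dnajb3, Dnajb7 and Dnajb8 are testis-enriched family members, Dnajc6 is auxilin, which uncoats clathrin vesicles in neurons, and Dnajc9 is a histone chaperone. Of the 4 members listed as testis-enriched, Dnajb13 had a tested probe, and Dnajb3 and Dnajb8 each had a probe detected on 4 arrays. Of all member probes, 31 were detected on every array and 24 on none. The dimmest probes kept were detected on 6 arrays and belong to Dnajb4 (mean of 4.39 in log2 intensity) and Dnajb6 (4.35). The nearest probes left out were detected on 5 and belong to Dnaja2 (4.33) and Dnajc19 (4.30). Log2 intensities here are background-corrected, quantile-normalized signals on a scale whose floor lies near 4, and the brightness of different probes cannot be compared as a level of RNA.

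No member probe passed an adjusted p of 0.05 in the comparison of TOL with INT mice. With limma and Benjamini-Hochberg adjustment over all 15570 tested probes, 0 of 43 member probes were called, beside 129 or 0.829% of all probes. At a nominal p, before adjustment, of 0.05 or less, the threshold named in the study's methods, 5 of 43 (11.6%) were called, beside 9.91% of all probes. Of these, 3 were higher in TOL mice (background 4.61%) and 2 were lower (background 5.3%). The share of members is close to the background in each direction. The split depends on the scaling, since with median scaling in place of quantile normalization 0 members were higher and 7 lower at that threshold, and 12.1% of all probes past it were higher in place of 46.5%. By the methods' t-test, 3 of 43 passed it, beside 9.45% of all probes, and 0 after Benjamini-Hochberg adjustment, beside 52 of all probes. The values of TOL and INT mice overlapped for all 43 member probes, while they did not overlap for 1.09% of all probes. The median log2 difference, TOL minus INT, was -0.02 over the members and 0.00 over all tested probes, with 19 members above 0 and 24 below. By class the median was -0.05 in class A, -0.03 in class B and -0.02 in class C.

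Each interval bounds the difference of a single tested probe under this normalization, not that of the family as a whole. Genes with no tested probe have no interval. On probes near the floor the size of a difference also depends on the background correction. The 95% interval of a member probe had a median half-width of 0.21 on the log2 scale, and over all 43 probes the intervals lay between -0.53 and 0.87. The plot of the log2 differences shows that the upper extreme belongs to Dnajc7 and the lower to Dnajc2.

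**Figure D1:**
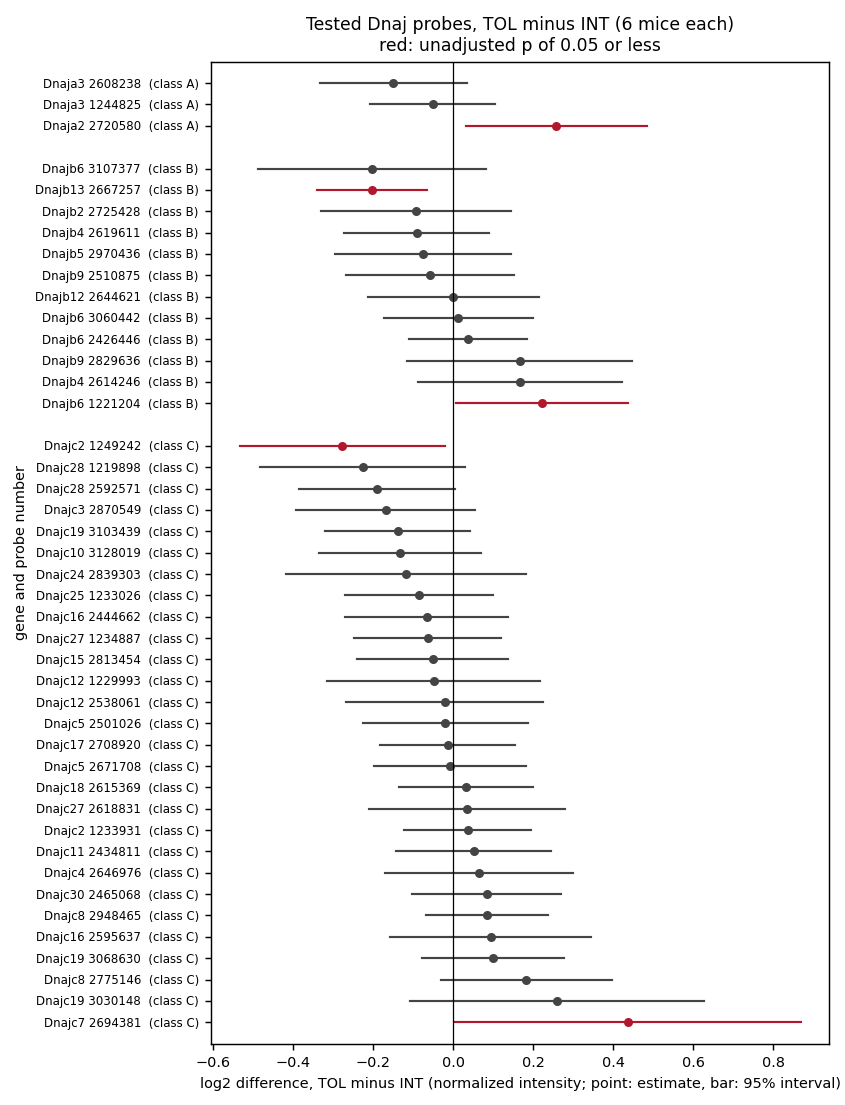
Log2 difference of normalized intensity, TOL minus INT, for each of the 43 tested Dnaj probes by class, with the point the limma estimate and the bar its 95% interval (6 mice per group). The 5 probes in red had a nominal p of 0.05 or less, and estimates run from -0.28 for Dnajc2 to 0.44 for Dnajc7.

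The cytosolic chaperones had 10 tested probes of 6 genes, of which 3 (30%) had a nominal p of 0.05 or less, beside 9.91% of all probes. All 3 were higher in TOL mice, and 4.61% of all probes passed in that direction. No share was tested against another. With median scaling these 3 probes had limma p values of 0.0761 to 0.251 and no longer passed. Dnaja2 is the general class A partner of the constitutive Hsp70, Hspa8. Its probe ILMN_2720580 read from 5.35 to 5.84 in INT mice (median 5.66) and from 5.74 to 6.15 in TOL mice (median 5.89). All 6 TOL mice were above the INT mean, and INT mice 9 and 11 lay inside the TOL range. The log2 difference was 0.26 ± 0.11 (SE), with a limma p of 0.0278 and an adjusted p of 0.429, and it was 0.13 with no background correction and 0.16 with an offset of 50. Leaving out any of INT mice 4 and 7 and TOL mouse 5 gave a p of 0.0624 to 0.0783. Its other probes were detected on 5 and 3 arrays and were not tested.

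Dnajc7 holds tetratricopeptide repeats that bind both Hsp70 and Hsp90. Its single probe gave the largest estimate of the family. It read from 6.29 to 6.92 in INT mice (median 6.78) and from 6.54 to 7.79 in TOL mice (median 7.19). TOL mice 7, 9 and 11, at 7.45, 7.79 and 7.72, were above every INT mouse, while TOL mice 3, 4 and 5, at 6.54, 6.92 and 6.56, lay within the INT range or at its upper edge. The log2 difference was 0.44 ± 0.21 (SE), 1.35-fold, with a limma p of 0.0482 and an adjusted p of 0.499. The SD within TOL mice was 0.56, beside 0.23 within INT mice. INT mouse 5 read lowest of all, at 6.29. Without any of INT mice 3, 4, 5, 7 and 11 or TOL mice 7, 9 and 11 the p was 0.0526 to 0.131, and the fits that each left out a mouse gave log2 differences from 0.31 to 0.56.

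Dnajb6 was measured by 4 tested probes, annotated to different transcript records, and they did not give the same sign. The brightest, ILMN_3060442, read from 8.24 to 8.52 in INT mice (median 8.41) and from 8.23 to 8.55 in TOL mice (median 8.38), a log2 difference of 0.01 with a 95% interval of -0.17 to 0.20. Its SD over the 12 mice, 0.11, was lower than that of all but 11.7% of tested probes. ILMN_1221204 read from 4.80 to 5.31 in INT mice (median 5.18) and from 5.17 to 5.49 in TOL mice (median 5.40). That is a log2 difference of 0.22 ± 0.10 (SE), with a limma p of 0.0431 and an adjusted p of 0.488, and all 6 TOL mice were above the INT mean. The difference was 0.09 with no background correction and 0.12 with an offset of 50. INT mouse 3 was the lowest, at 4.80, and without it the difference was 0.16 with a limma p of 0.114. Without any of INT mice 4, 5 and 11 or TOL mice 3, 5, 7 and 11 the p was 0.0509 to 0.0858. ILMN_3107377 went the other way, from 6.09 to 6.79 in INT mice (median 6.56) and from 6.04 to 6.65 in TOL mice (median 6.31), with a log2 difference of -0.20 ± 0.13 (SE) and a p of 0.151. Among the INT mice, number 3 was also the lowest on this probe, at 6.09, and without it the difference was -0.29 with a limma p of 0.0307. With array weights it was -0.28 with a limma p of 0.035. The fourth probe, ILMN_2426446, was detected on 2 INT and 4 TOL arrays and differed by 0.04.

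The promoter of Dnajb6 is shown because it was the only one among the 31 member genes with a promoter entry that held a 3-part heat shock element, the site that heat shock factors bind. The stretch lies on the plus strand at chr5:29735812-29735904 of GRCm38.p6, from RefSeq, and the capitals mark the element, searched as TTCNNGAANNTTC on both strands. The element ends 34 bases before the annotated start of a Dnajb6 transcript.
Dnajb6 promoter: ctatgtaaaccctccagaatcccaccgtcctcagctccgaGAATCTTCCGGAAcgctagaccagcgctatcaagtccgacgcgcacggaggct
This element was in 0.603% of the 32851 promoters given, each from 250 bases before to 50 bases after a start. It was in 2 of the 40 member promoters, both entries of Dnajb6, which hold the same genomic site before different starts, so 1 site is counted in 2 entries. The 2-part core GAANNTTC, which overlaps it, was in 7.86% of promoters and in 4 of the 40 member promoters, close to that share. They belong to 3 member genes, Dnajb6 (the same 2 entries), Dnajc5g and Dnajc27, among the 31 of 38 member genes with an entry. Dnajc5g was detected on no array. Dnajc27 differed by 0.04 and -0.06 on its probes. A match is a description of letters and not a shown binding site.

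Dnajb4, a cytosolic class B protein close to Dnajb1, gave little signal on this array. Its linear signals before correction, 78.2 to 83.7 in INT and 72.7 to 79.3 in TOL mice for ILMN_2619611, lay close to the array medians. On the log2 scale this probe read from 4.43 to 4.76 in INT mice (median 4.56) and from 4.16 to 4.64 in TOL mice (median 4.58), with a difference of -0.09 ± 0.09 (SE) and a p of 0.304. TOL mouse 5 was the lowest. The other tested probe, ILMN_2614246, detected on 3 arrays of each group, read from 4.24 to 4.38 in INT mice (median 4.30) and from 4.16 to 5.13 in TOL mice (median 4.38). TOL mouse 11, at 5.13, stood above all other mice, at 4.53 or less, and without it the difference went from 0.17 to 0.04. The third probe of Dnajb4 was detected on no array. Of the other cytosolic members, Dnajb2, a co-chaperone that binds ubiquitin chains, read from 8.25 to 8.81 in INT and from 8.21 to 8.71 in TOL mice, with a difference of -0.09 ± 0.11 (SE).

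**Figure D2:**
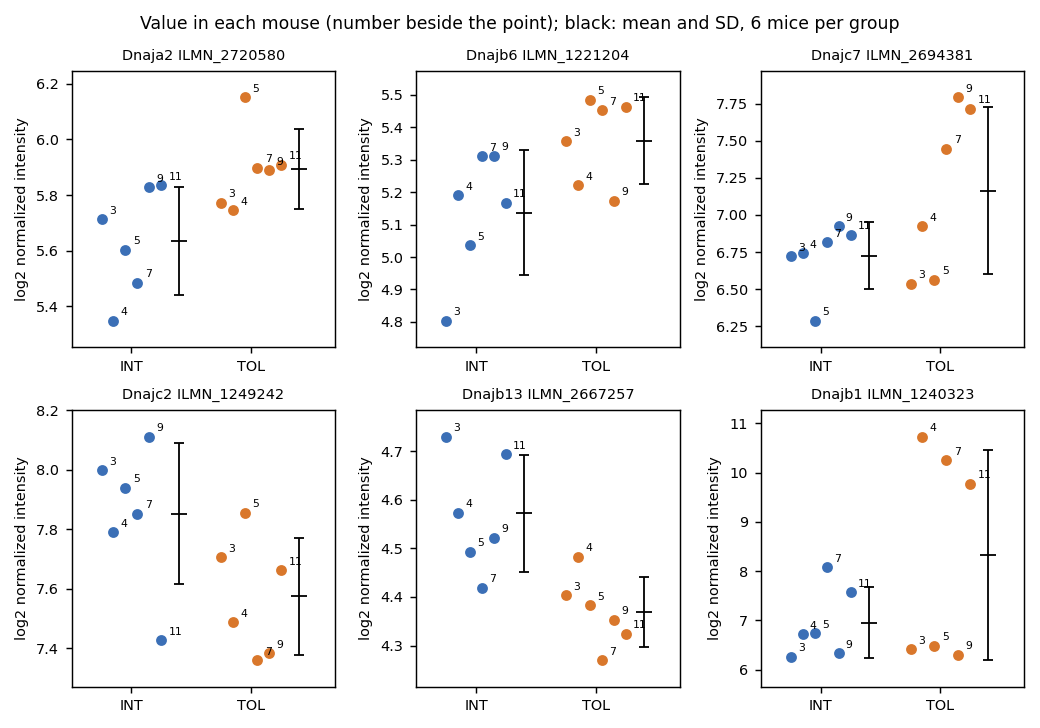
Log2 normalized intensity of the 5 Dnaj probes with a nominal p of 0.05 or less, and of Dnajb1 for contrast, in each mouse (numbers beside the points), with the mean and SD of 6 mice per group in black. TOL and INT mice overlap in each panel, and for Dnajb1 TOL mice 4, 7 and 11 read 10.73, 10.25 and 9.77 while the other TOL mice read 6.31 to 6.49.

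Nuclear, splicing and ribosome members had 5 tested probes of 3 genes, with 1 at a nominal p of 0.05 or less, beside 9.91% of all probes. Dnajc2 sits on the ribosome and helps fold new chains. Its bright probe, ILMN_1249242, read from 7.43 to 8.11 in INT mice (median 7.90) and from 7.36 to 7.85 in TOL mice (median 7.57). Of the TOL mice, 5 of 6 were below the INT mean, and INT mouse 11, at 7.43, lay among the lowest TOL values. The log2 difference was -0.28 ± 0.12 (SE), with a limma p of 0.0355 and an adjusted p of 0.461. Without any of INT mice 3, 5, 7 and 9 or TOL mice 4, 7 and 9 the p was 0.0512 to 0.0893. Its dim probe, ILMN_1233931, differed by 0.04 ± 0.08 (SE). Dnajc8, a spliceosome-associated member, differed by 0.18 and 0.08 on its probes, the brighter one with a nominal p of 0.0893 and all 6 TOL mice above the INT mean. Dnajc17 differed by -0.01.

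Dnajb13, a radial spoke protein of sperm tails and cilia, had the smallest p of the family on a probe near the floor. ILMN_2667257 read from 4.42 to 4.73 in INT mice (median 4.55) and from 4.27 to 4.48 in TOL mice (median 4.37), and it was detected in 6 INT and 4 TOL mice. All 6 TOL mice were below the INT mean, though TOL mouse 4, at 4.48, was above INT mouse 7, at 4.42. The log2 difference was -0.20 ± 0.07 (SE), with a limma p of 0.00641 and an adjusted p of 0.254, the lowest adjusted p of any member. The size of the difference depended on the background step, at -0.06 with no background correction and -0.08 with an offset of 50. Before correction the signals were 77.6 to 82.4 in INT and 73.5 to 77.5 in TOL mice.

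Mitochondrial members had 11 tested probes of 7 genes, and 0 reached a nominal p of 0.05, beside 9.91% of all probes, so nothing is read from this count. The count depends on the scaling. With median scaling Dnaja3 ILMN_2608238, Dnajc19 ILMN_3103439 and Dnajc28 ILMN_2592571 had limma p values of 0.0279 to 0.0384, all lower in TOL mice. Their adjusted p values were 0.38 to 0.42, and 11.1% of all probes passed a nominal 0.05 there. Dnajc19 is a subunit of the motor that pulls proteins through the inner membrane. Its brightest probe, ILMN_3103439, read from 10.71 to 11.12 in INT mice (median 10.94) and from 10.60 to 10.90 in TOL mice (median 10.83), and all 6 TOL mice were below the INT mean. The difference was -0.14 ± 0.09 (SE), with a p of 0.127. Its dim probe ILMN_3030148 read from 4.41 to 4.58 in INT mice and from 4.25 to 5.67 in TOL mice, with TOL mouse 7 at 5.67 and TOL mouse 4 at 4.98 and the other mice at 4.60 or less. The difference on that probe was 0.26 ± 0.17 (SE), with an SD of 0.52 in TOL and 0.07 in INT mice, and without TOL mouse 7 it was 0.07. Dnajc15, a relative of Dnajc19 at the same motor, read from 9.76 to 10.15 in INT and from 9.71 to 10.07 in TOL mice, a difference of -0.05 ± 0.09 (SE).

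Dnaja3, the class A member of the mitochondrial matrix, works with Hspa9. Its bright probe ILMN_2608238 read from 9.84 to 10.12 in INT mice (median 9.98) and from 9.60 to 9.96 in TOL mice (median 9.87), a difference of -0.15 ± 0.09 (SE) with a p of 0.105. All 6 TOL mice were below the INT mean, and TOL mouse 11 was the lowest. Its dim probe, ILMN_1244825, differed by -0.05 ± 0.07 (SE). The probes of Dnajc28 differed by -0.23 and -0.19, with p values of 0.0801 and 0.0561, and TOL mouse 11 was the lowest mouse on both. The dimmer one, ILMN_2592571, had a nominal p of 0.05 or less in 5 of the 21 alternatives that tested it. Its lowest adjusted p among them was 0.294. Dnajc30, Dnajc4 and Dnajc11 differed by 0.08, 0.06 and 0.05, each with an interval that held 0.

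Endoplasmic reticulum members had 9 tested probes of 7 genes, and 0 reached a nominal p of 0.05, again beside 9.91%. Dnajb9 and Dnajc3 are targets of the unfolded protein response. Dnajb9 delivers misfolded proteins to the lumenal Hsp70, Hspa5, and Dnajc3 was first known as an inhibitor of the kinase PKR. The bright Dnajb9 probe, ILMN_2829636, read from 6.23 to 6.46 in INT mice (median 6.25) and from 6.19 to 7.04 in TOL mice (median 6.32). TOL mouse 11, at 7.04, and TOL mouse 5, at 6.65, were above every INT mouse. The log2 difference was 0.17 ± 0.13 (SE) with a p of 0.227, and without TOL mouse 11 it was 0.05. The dim Dnajb9 probe, ILMN_2510875, differed by -0.06.

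Dnajc3 read from 6.40 to 6.91 in INT mice and from 6.22 to 6.71 in TOL mice, a difference of -0.17 ± 0.11 (SE) with a p of 0.132. Its promoter is shown because it alone, among those 31 genes, held the endoplasmic reticulum stress element, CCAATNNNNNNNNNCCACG, searched on both strands and present in 0.119% of all promoters. The stretch lies on the plus strand at chr14:118937787-118937885 of GRCm38.p6, from RefSeq, with the element in capitals.
Dnajc3 promoter: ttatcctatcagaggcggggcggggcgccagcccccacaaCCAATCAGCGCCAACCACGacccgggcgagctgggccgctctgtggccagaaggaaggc
The remaining endoplasmic reticulum members, Dnajb12, Dnajc10, Dnajc16, Dnajc18 and Dnajc25, had estimates between -0.13 and 0.09. Dnajb12, a membrane protein that helps degrade misfolded membrane clients, read from 6.59 to 7.01 in INT mice and from 6.58 to 6.97 in TOL mice, a difference of 0.00 with a 95% interval of -0.21 to 0.22.

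The vesicle member Dnajc5, the cysteine string protein that guards release of transmitter at nerve endings, gave differences near 0 on both of its probes. ILMN_2501026 read from 8.32 to 8.67 in INT mice (median 8.60) and from 8.27 to 8.66 in TOL mice (median 8.53). The log2 differences were -0.02 on this probe and -0.01 on the other, with 95% intervals of -0.22 to 0.19 and -0.20 to 0.18. Dnajc24, which takes part in the making of diphthamide on elongation factor 2, read from 5.84 to 6.55 in INT mice and from 5.58 to 6.41 in TOL mice, a difference of -0.12 ± 0.14 (SE). Dnajc12, a co-chaperone of aromatic amino acid hydroxylases, differed by -0.05 and -0.02 on its probes.

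Probes of the same gene did not always keep the same sign, and the share of other genes on the array with differing signs was not counted. Of the 12 genes with at least 2 tested probes, 7 held estimates on both sides of 0 and 5 kept to one side. The genes with differing signs were Dnajb4, Dnajb6, Dnajb9, Dnajc2, Dnajc16, Dnajc19 and Dnajc27. In all of these but Dnajc16 the dimmest tested probe had a mean of 4.35 to 4.71, near the floor. The Dnajb6 probes at the ends of its range were brighter, with means of 6.43 and 5.25. The widest spreads were in Dnajb6, from -0.20 to 0.22, and in Dnajc19, from -0.14 to 0.26. Dnaja3, Dnajc5, Dnajc8, Dnajc12 and Dnajc28 kept to one side, though Dnaja3, Dnajc8 and Dnajc28 also had a dim probe. The brightest probe of each gene was then set against each other tested probe, mouse by mouse, in 15 pairs. With group labels permuted in all 924 ways (exact, two-sided), 1 of 15 pairs had p = 0.0476, the pair of Dnajc2, and after Benjamini-Hochberg adjustment over the 15 pairs the lowest value was 0.357. This depended on INT mouse 11, whose difference between the Dnajc2 probes was 2.79 beside 3.32 to 3.64 in the other INT mice and 2.96 to 3.20 in TOL mice. Without it the adjusted permutation p of the Dnajc2 pair was 0.0325, and leaving out any other single mouse gave lowest adjusted values of 0.305 to 0.478. The pairs of Dnajb6 gave permutation p values of 0.232, 0.0952 and 0.799.

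No mouse was high or low over the whole family. The median deviation of the 43 member probes from their own 12-mouse means ran from -0.07 in TOL mouse 9 to 0.05 in TOL mouse 5. TOL mouse 11 had the highest value of 5 of the 43 member probes and the lowest of 8, beside 13.5% and 16.3% of all tested probes. TOL mouse 7 had the highest of 2 of the 43 and the lowest of 9, beside 9.45% and 10.4%. Its share of lowest values was thus above that of all probes, and its share of highest values below. INT mouse 3 had the highest of 7 of the 43 and the lowest of 1, beside 12.9% and 13%, which is the reverse. These shares were not tested. In the heat map of the deviations, cells over 0.5 in size lie in INT mouse 5 (1 probe) and in TOL mice 7 (2 probes), 9 (1 probe) and 11 (4 probes).

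**Figure D3:**
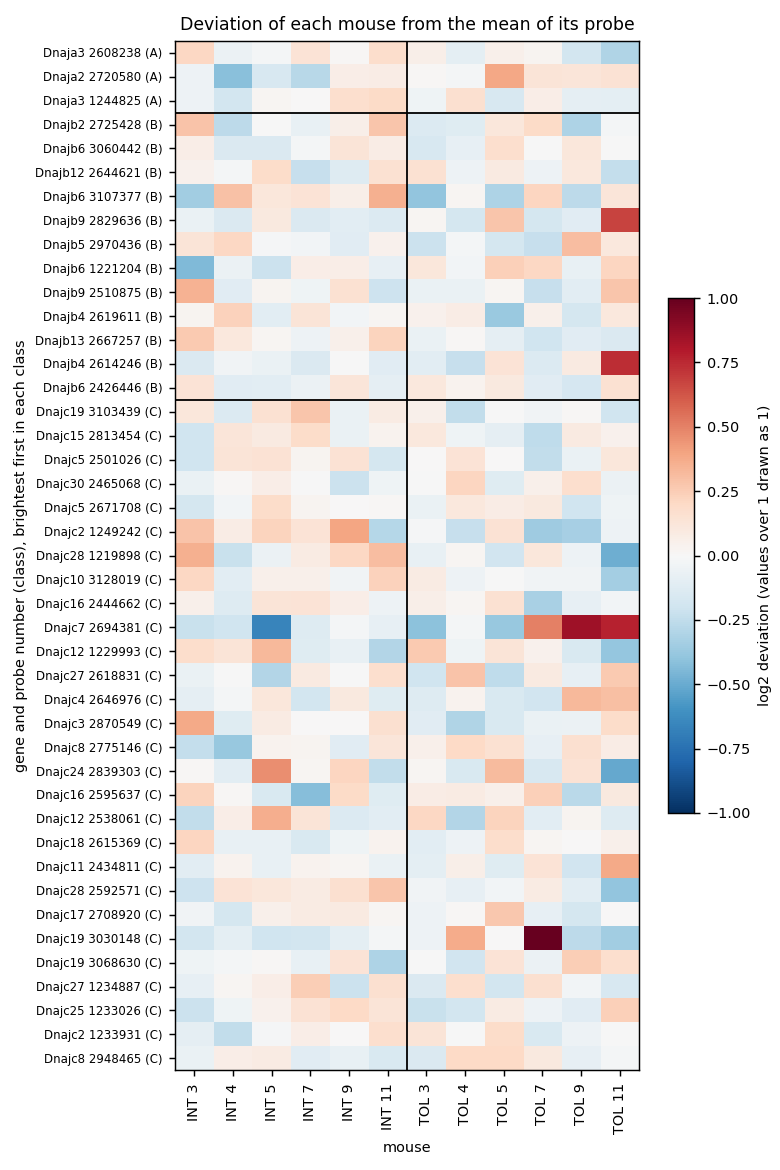
Deviation of each mouse (columns) from the 12-mouse mean of each tested Dnaj probe (rows, by class and with the brightest first), in log2 units, blue below and red above, with values over 1 drawn as 1. Most cells are pale, and the darkest are TOL mouse 7 on Dnajc19 ILMN_3030148 (5.67) and TOL mice 9 and 11 on Dnajc7 (7.79 and 7.72).

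The excluded Dnajb1 showed how large a difference these arrays registered. Its probe read from 6.27 to 8.09 in INT mice, and 10.73, 10.25 and 9.77 in TOL mice 4, 7 and 11, with 6.41, 6.49 and 6.31 in TOL mice 3, 5 and 9. The log2 difference of the groups was 1.37 ± 0.71 (SE), with a limma p of 0.0701 and an adjusted p of 0.563. Hspa1a, the inducible Hsp70, read 10.04, 8.88 and 12.41 in TOL mice 4, 7 and 11 and at most 6.26 in any other mouse. In those TOL mice the median deviation of the Dnaj members was -0.02, -0.03 and 0.00, and the bright Dnajb6 probe read 8.31, 8.38 and 8.38, inside the INT range. The dimmer Dnajb6 probe ILMN_1221204 read 5.22, 5.45 and 5.46 in them, the last 2 above the INT maximum of 5.31. TOL mice 3 and 5, at 5.36 and 5.49, were above that maximum too. On Dnajb6 ILMN_3107377, TOL mice 4, 7 and 11 read 6.45, 6.65 and 6.56, inside the INT range. TOL mice 3, 5 and 9 read lower on it, at 6.04, 6.13 and 6.17. The dim Dnajb6 probe ILMN_2426446 read 4.24 to 4.50 in TOL mice 4, 7 and 11 and 4.18 to 4.46 in TOL mice 3, 5 and 9. How many other member probes part these TOL mice was not counted. On Dnajc7, TOL mice 7 and 11 were above every INT mouse, but TOL mouse 9, at 7.79, was the highest of all. TOL mice 3, 5 and 9 were not among those with high Dnajb1 and Hspa1a. Dnaja1 had 0 tested probes of 2, and Dnaja4 was not analysed here.

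The rest of the Hsp70 system was counted on the same footing. Of its 56 probes, which cover Hsp70 and Hsp110 proteins, exchange factors, adaptors, J-proteins with other symbols and the excluded Dnaj genes, 33 were tested. By limma 0 were called at an adjusted p of 0.05, beside 0.829% of all probes, and 2 (6.06%) at a nominal p of 0.05 or less, beside 9.91%, Hspa1a with 2.35 ± 1.01 (SE) and the exchange factor Bag4 with -0.31 ± 0.11 (SE). Of the Hsp70 partners of the organelles, Hspa9 of the mitochondria differed by -0.01 and 0.02 on its probes, which were bright. The single probe of Hspa5, of the endoplasmic reticulum, differed by 0.09 ± 0.10 (SE). Its mean of 4.49 lay near the floor and it was detected on 10 of 12 arrays, so little can be read from it. The 3 probes of Hspa8 differed by 0.12, 0.29 and 0.33, with p values of 0.394, 0.348 and 0.199, and TOL mouse 11 was the highest on each.

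The spread between mice was small for most members. The SD over the 12 mice had a median of 0.16 over the 43 member probes, beside 0.17 over all 15570 tested probes. It ran from 0.11 for Dnajc18 to 0.47 for Dnajc7, and the next widest was 0.38 for the dim Dnajc19 probe. The SD of Dnajb1 was 1.68 and that of Hspa1a 2.49.

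**Figure D4:**
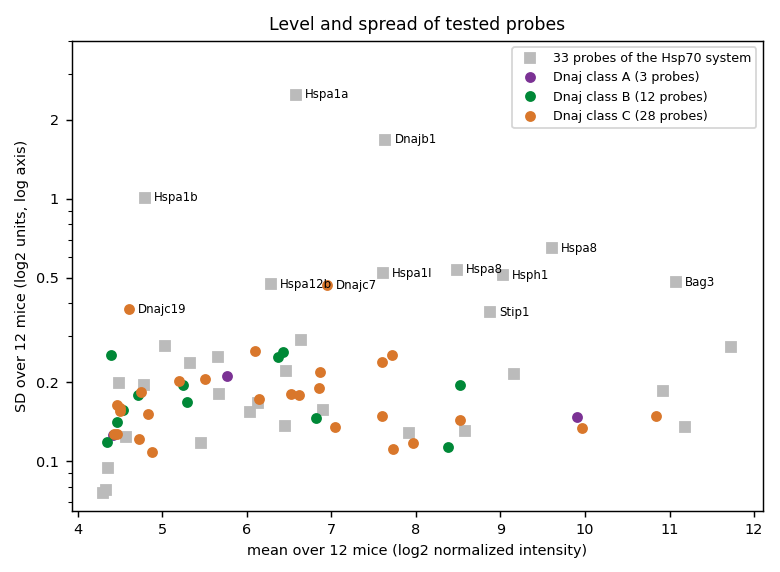
SD over the 12 mice (log2 units, log axis) against the mean over the 12 mice (log2 normalized intensity) for the 43 tested Dnaj probes by class and, in grey squares, the 33 tested probes of the Hsp70 system. Dnaj probes lie between 0.11 and 0.47, below Dnajb1 (1.68) and Hspa1a (2.49).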

How the data were processed

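The authors scanned the arrays and read them with GenomeStudio (version not given in the sources used here). The deposited signals are average intensities per probe and array, linear and uncorrected, each beside a deposited p-value for detection. A second deposited table of processed intensities, with a median of 1.6 in every column, was an alternative only. Groups came from the sample titles, since the description of all 12 samples reads heat intolerant. Genes were named from the platform annotation, in which 34885 probes have 1 symbol, 18 several and 10378 none.

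With limma 3.58.1 in R 4.3.3, neqc corrected the background by means of the detection values (offset of 16), normalized by quantiles and gave log2 values. Probes detected (p under 0.05) on 6 of 12 arrays or more entered lmFit and eBayes with an intensity trend, TOL minus INT, and Benjamini-Hochberg adjustment ran over all of them. The fit was tested on simulated data. Each mouse is a replicate, and their number limits the precision. Named were member probes with a nominal p of 0.05 or less and their genes' other probes, Dnajb4 and Dnajb6, the 3 brightest, most variable and lowest-p probes of each class, and genes with at least 2 tested probes. The remaining members, Bag4, the probe pairs and the promoters were chosen after their values were seen. The members and lists were chosen with earlier results of these data known. The study's miRNA arrays and protein assays were not analysed here.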

Additional observations from a re-analysis of the deposited data

Results flagged for a closer look

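In 44 groups of 6 mice, 22 named Dnaj probes in each of INT and TOL, a single mouse lay far from the rest of its group in 2, where the ratio of its gap to the group's range was past Dixon's 95% critical value. Chance alone passes this mark in about 5% of groups. Both concern INT mouse 5. On the Dnajb9 probe ILMN_2829636 it read 6.46, above the other INT mice at 6.23 to 6.31 and with a ratio of 0.671. On the Dnajc7 probe it read 6.29, below the other INT mice at 6.72 to 6.92 and with a ratio of 0.68. Without INT mouse 5 the log2 difference of Dnajc7 was 0.35, with a limma p of 0.116 and an adjusted p of 0.692.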

How the results depend on the processing

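In all 22 alternatives, limma or the methods' t-test called 0 member probes at an adjusted p of 0.05, and 0 of the Hsp70 system. The count at a nominal p of 0.05 or less was 5 (3 higher, 2 lower). It was 8 with no filter (82 probes, 5 higher), 3 with probes detected on all 12 arrays (31 probes) and 3 by the methods' t-test, beside 6.91%, 10% and 9.45% of all probes. Leaving out a mouse gave 2 to 5, the lowest without INT mouse 5 or 7. Array weights gave 5, of which 4 were lower. Median scaling in place of quantile normalization moved the median of all probes to -0.06 and of the members to -0.10. It then put 0 members higher and 7 lower at a nominal p of 0.05 or less, and of all probes called that way 12.1% were higher in place of 46.5%. Dnaja2, Dnajb6 ILMN_1221204 and Dnajc7 stayed above 0 there, at 0.17, 0.14 and 0.33, but no longer passed that threshold. Among the 7 lower probes were Dnajb13 and Dnajc2 ILMN_1249242, which passed in the main fit. Mitochondrial probes of Dnaja3 (ILMN_2608238), Dnajc19 (ILMN_3103439) and Dnajc28 (ILMN_2592571) were also among them and had not passed. Leaving out a mouse moved the member median between -0.03 and 0.00. Dnajb13 kept a nominal p of 0.05 or less in 21 of the 21 alternatives that tested it, Dnaja2 in 18, Dnajc2 in 14, Dnajb6 in 11 and Dnajc7 in 10 of 22. Same-numbered TOL and INT mice deviated together with r of -0.01 to 0.15, and 2 of 6 pairs were over 0.1, so the numbers were not taken as pairs. That check does not cover sets of numbers. On Dnajb6 ILMN_3107377, INT mice 4, 7 and 11 read 6.57 to 6.79 and INT mice 3, 5 and 9 read 6.09 to 6.55. The same TOL numbers read 6.45 to 6.65 and 6.04 to 6.17. Such a split was not tested or counted over the members, and what a number stands for is not given. With mouse number as a replicate block, 0 members were called at an adjusted p of 0.05, 4 at a nominal one, and the median stayed at -0.02. With that block Dnajc7 had a limma p of 0.00812 and an adjusted p of 0.257. Dnajb6 ILMN_1221204 no longer passed, with a limma p of 0.0609, and ILMN_3107377 had a limma p of 0.075. For the Hsp70 system the nominal count went from 2 to 4 with that block, to 8 with no filter, and to between 1 and 6 without single mice. Of the probe pairs, 1 (Dnajc2) passed an adjusted permutation p of 0.05 without INT mouse 11 and 0 without any other single mouse. With no background correction the Dnajb13 difference shrank from -0.20 to -0.06 on the log2 scale. Signals near background, such as those of Dnajb4 and Dnajb13, limit what can be read from dim probes.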
